A study of Homo sapiens with 14 samples.

Results

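The accessible chromatin around 10 genes for adhesion of multiple myeloma (MM) cells to bone marrow stroma was described in MM.1S and RPMI8226, both established human MM cell lines. The genes were the integrin subunits ITGA4, ITGB1, ITGB7, ITGAL, ITGB2 and ITGA5, together with CD44, ICAM1, NCAM1 and SELPLG. The members were found by position. They were all reference peaks that touched the body of a gene, as annotated by GENCODE on hg38, or the 50 kb on either side of it. This gave 110 of the 72802 reference peaks of MM.1S and 116 of the 79969 of RPMI8226, or 226 of 152771 over both lists, and no level of accessibility entered the choice.

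To examine how bone marrow stroma affects the regulome of MM cells, the study profiled open chromatin by Omni-ATAC, in which a transposase cuts accessible DNA and tags it for sequencing. MM cells were grown alone (MONO), in an upper transwell above HS5 cells, a human marrow stromal line, with a membrane between them (TSW), or in the lower chamber in contact with HS5 (CO). MM.1S had 9 libraries, with 3 MONO, 3 TSW and 3 CO, and RPMI8226 had 5, with 1 MONO, 2 TSW and 2 CO. Neither line carried an engineered allele or received a drug. The MM cells were sorted by flow cytometry as CD90-negative and CD38-positive before the assay, and the study's methods state that a minor share of HS5 cells remained in the CO sort. A reference peak is one that at least 3 libraries of a line had, from any culture condition, and the only value deposited for a peak is its support, read here as the number of libraries with the peak. The lists therefore hold no accessibility for a single sample, the depth behind each peak is unknown from them, and neither list has a replicate. No difference between MONO, TSW and CO, and no difference between the lines, could be tested.

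Integrins are receptors of 1 alpha and 1 beta chain that bind matrix and cell surface ligands and signal in both directions across the membrane. In MM, the pair of ITGA4 and ITGB1 (VLA-4) binds VCAM1 and fibronectin on stroma, and such binding is known for the drug resistance that adhesion brings. ITGA4 also pairs with ITGB7, ITGAL pairs with ITGB2 as LFA-1, whose ligand is ICAM1, and ITGA5 pairs with ITGB1 as the fibronectin receptor VLA-5. CD44 binds hyaluronan, NCAM1 (CD56) is a homophilic adhesion molecule often present on MM cells, and SELPLG (PSGL-1) carries the glycans through which cells roll on selectins.

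A set of 7 short stretches of DNA carries the contrasts described below, and they are given 5′ to 3′ on hg38 with the letters of a motif in capitals. The set was chosen after the values were seen. The first group holds the 300-base promoter windows from RefSeq (250 bases before to 50 after the start) of CD44, ITGA5 and ICAM1. The CD44 start had a peak in the MM.1S list alone, the ITGA5 start in neither list and the ICAM1 start in both. RefSeq windows were matched for 6 of the 10 genes, and none was matched for ITGAL, ITGB2, NCAM1 and SELPLG. The second group holds the central 200 bases of peaks called in 1 line or in both, read on the plus strand. Capitals mark AP-1 (TGACTCA or TGAGTCA), the MAF motif (TGCTGAC, or GTCAGCA on the other strand), STAT (TTCCNGGAA), ETS (CCGGAA or TTCCGG) and SP/KLF (GGGCGG or CCGCCC) sites. In ICAM1 the STAT letters overlap 1 of the ETS matches. The printed peaks called in 1 line only are all of RPMI8226 and all hold AP-1 letters, and none of MM.1S alone is printed. Among the centres of all peaks around the 10 genes, AP-1 letters stood in 7 of 110 in MM.1S and 10 of 116 in RPMI8226.
CD44 promoter, chr11:35138921-35139220, plus strand: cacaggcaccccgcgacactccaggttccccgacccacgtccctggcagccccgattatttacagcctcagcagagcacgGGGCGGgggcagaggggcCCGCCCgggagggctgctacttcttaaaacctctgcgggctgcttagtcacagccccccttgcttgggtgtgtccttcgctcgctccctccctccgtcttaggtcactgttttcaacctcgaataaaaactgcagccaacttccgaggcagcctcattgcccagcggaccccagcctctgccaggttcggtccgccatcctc
ITGA5 promoter, chr12:54419217-54419516, minus strand: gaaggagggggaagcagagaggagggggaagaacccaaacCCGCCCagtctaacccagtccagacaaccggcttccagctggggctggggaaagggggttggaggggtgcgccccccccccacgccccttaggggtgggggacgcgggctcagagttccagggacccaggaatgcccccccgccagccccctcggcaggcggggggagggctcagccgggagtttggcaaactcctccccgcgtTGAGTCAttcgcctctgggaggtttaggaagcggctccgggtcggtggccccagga
ICAM1 promoter, chr19:10270870-10271169, plus strand: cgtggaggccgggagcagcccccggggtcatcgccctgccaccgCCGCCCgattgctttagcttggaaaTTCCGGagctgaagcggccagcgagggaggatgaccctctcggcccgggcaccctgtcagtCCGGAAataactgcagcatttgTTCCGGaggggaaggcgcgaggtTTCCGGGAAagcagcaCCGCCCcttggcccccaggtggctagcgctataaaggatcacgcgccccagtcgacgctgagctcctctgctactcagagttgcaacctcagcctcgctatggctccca
CD44 intron, RPMI8226 only, chr11:35146150-35146349: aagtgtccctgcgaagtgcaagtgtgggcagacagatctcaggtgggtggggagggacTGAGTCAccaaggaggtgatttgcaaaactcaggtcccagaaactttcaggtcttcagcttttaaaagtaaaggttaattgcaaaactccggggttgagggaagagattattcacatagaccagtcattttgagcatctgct
ITGA5 upstream, RPMI8226 only, chr12:54423339-54423538: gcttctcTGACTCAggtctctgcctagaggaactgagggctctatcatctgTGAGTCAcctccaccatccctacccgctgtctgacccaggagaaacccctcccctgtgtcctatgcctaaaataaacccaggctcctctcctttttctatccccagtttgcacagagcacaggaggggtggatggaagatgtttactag
NCAM1 intron, RPMI8226 only, chr11:113238778-113238977: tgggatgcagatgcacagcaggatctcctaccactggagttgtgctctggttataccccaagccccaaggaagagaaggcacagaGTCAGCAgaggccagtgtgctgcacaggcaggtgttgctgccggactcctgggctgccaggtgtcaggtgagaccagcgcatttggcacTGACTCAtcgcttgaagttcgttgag
SELPLG downstream, both lines, chr12:108617344-108617543: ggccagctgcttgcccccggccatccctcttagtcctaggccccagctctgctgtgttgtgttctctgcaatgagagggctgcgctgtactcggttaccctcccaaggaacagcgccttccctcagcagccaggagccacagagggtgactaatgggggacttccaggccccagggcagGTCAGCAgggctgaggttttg
The CD44 window holds 2 SP/KLF matches, which 45.0% of 35116 RefSeq promoters also hold at least once. The ITGA5 window holds 1 AP-1 match, a motif present in 4.95% of those promoters. The ICAM1 window holds 1 STAT match and 4 ETS matches, motifs present in 1.15% and 17.2% of the promoters. The ITGA5 upstream peak holds 2 AP-1 matches, and the NCAM1 intron peak holds both an AP-1 match and a MAF motif. A match is a run of letters and does not show that a factor binds there.

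The 10 windows were rich in peaks in both lines. The median window held 11.5 peaks in MM.1S and 12.5 in RPMI8226, where the median over 20007 protein-coding genes was 6 and 7. Per 100 kb of window the medians were 8.31 and 9.10 for the adhesion genes and 4.23 and 4.42 for all genes. ITGB7, ITGB2 and SELPLG stood at the upper end, with 12.1, 12.3 and 12.5 peaks per 100 kb in MM.1S, above 96.0%, 96.4% and 96.7% of genes. NCAM1 and ITGB1 stood at the lower end, with 1.68 and 2.29, above 16.7% and 25.1% of genes. Part of this density came from neighbours, at whose promoters 35 of the MM.1S and 38 of the RPMI8226 peaks lay.

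Peaks were classed by the start sites of all GENCODE transcripts. An own-promoter peak lay within 2500 bp of a start site of the adhesion gene, an other-promoter peak lay within 2500 bp of a start site of another gene only, and a distal peak touched no such stretch. In MM.1S the 110 peaks comprised 30 own-promoter, 35 other-promoter and 45 distal peaks. In RPMI8226 the 116 peaks comprised 30, 38 and 48. The distal share was 40.9% (95% Wilson interval 32.2 to 50.3) in MM.1S and 41.4% (32.8 to 50.5) in RPMI8226, against 60.8% and 64.0% of the whole lists. The intervals treat peaks as independent and cover counting error only. By the rule every window holds the start sites of a gene, while the whole lists also cover stretches without genes. A distal share over the windows of all genes was not computed, so this gap is not read as a property of the adhesion genes. Of the distal peaks, 12 in MM.1S and 13 in RPMI8226 lay within the body of the adhesion gene itself, and the others lay in neighbours or between genes. CD44 had the most distal peaks, 13 of its 15 in MM.1S and 8 of its 9 in RPMI8226, and ITGB7 had none in either line.

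**Figure D1:**
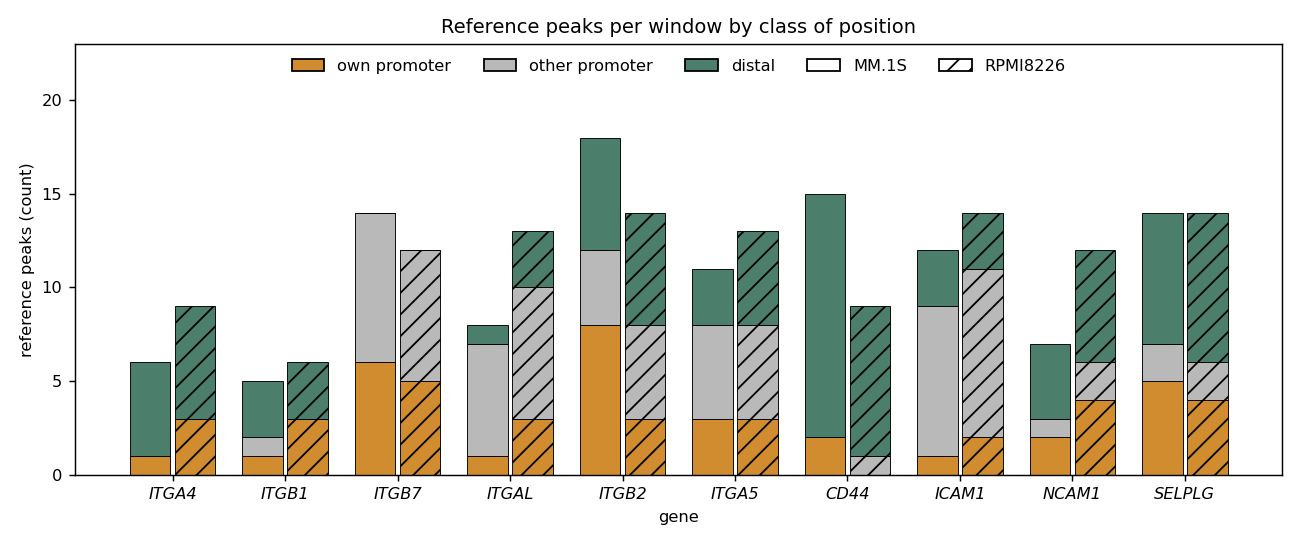
Count of reference peaks (vertical axis) in the window of each gene, stacked by class of position, for MM.1S (plain bars) and RPMI8226 (hatched bars). ITGB7 has no distal segment, CD44 has no own-promoter segment in RPMI8226, and ITGB2 has the tallest MM.1S bar, 18 peaks.

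Most adhesion-gene peaks were common to both lines. Peaks with at least 1 bp in common with the other line's list were counted as shared, and all others as line-only. In MM.1S 80 of 110 peaks were shared (72.7%, 63.7 to 80.2), where the whole list gave 64.6%. In RPMI8226 86 of 116 were shared (74.1%, 65.5 to 81.2), where the whole list gave 62.0%. Nearer the genes the shares did not lie above the lists in this way. With no flank they were 59.0% in MM.1S and 64.1% in RPMI8226, and with a flank of 10 kb 60.3% and 61.0%. Among distal peaks the shared share was 68.9% of 45 in MM.1S and 66.7% of 48 in RPMI8226, beside 60.0% and 53.7% of all distal peaks. Other-promoter peaks were shared most often, 30 of 35 and 32 of 38, and own-promoter peaks in 19 of 30 (63.3%) and 22 of 30 (73.3%) cases, beside 71.8% and 76.6% of all promoter peaks.

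Adhesion-gene peaks were called in every library, here full support, more often than peaks of the whole lists. In MM.1S 68 of 110 peaks (61.8%, 52.5 to 70.4) were called in all 9 libraries, where 52.0% of the whole list was. In RPMI8226 84 of 116 (72.4%, 63.7 to 79.7) were called in all 5 libraries, where 64.1% of the whole list was. Full support differed by class, at 56.7% of own-promoter, 71.4% of other-promoter and 57.8% of distal peaks in MM.1S. In RPMI8226 these shares were 76.7%, 86.8% and 58.3%. Support by class was not computed for the whole lists, so no gap in support is read as a property of the adhesion genes. Shared peaks had full support in 57 of 80 cases in MM.1S and 72 of 86 in RPMI8226, and line-only peaks in 11 of 30 and 12 of 30. A support of 7 or more in MM.1S, or of 5 in RPMI8226, can be reached only with at least 1 library of every culture condition, which held for 88 of the 110 MM.1S peaks (80.0%, 71.6 to 86.4) and 84 of the 116 RPMI8226 peaks, where 72.3% and 64.1% of the whole lists had such support. At the other end, a support of 3 in MM.1S could come from the 3 CO libraries alone, and 2 peaks had it, in ITGB1 and in ITGB2. Each of the 116 RPMI8226 peaks needed at least 1 library without stromal contact, since only 2 CO libraries were made. Any change in the height of a peak between conditions was not analysed here.

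**Figure D2:**
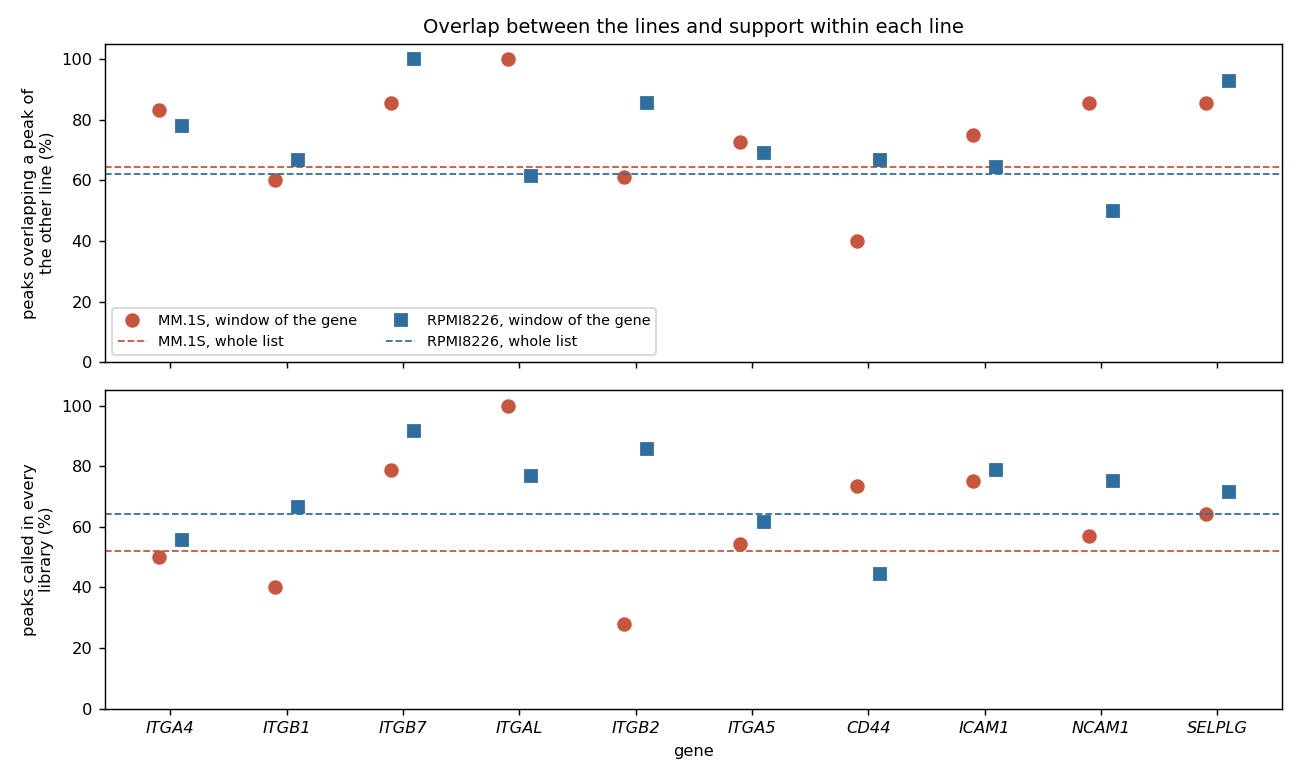
Share of the peaks in each gene's window that overlap a peak of the other line (upper panel, %) and that were called in every library of their line (lower panel, %), with dashed lines at the value of the whole list. CD44 lies lowest for overlap in MM.1S at 40.0%, NCAM1 lowest in RPMI8226 at 50.0%, and ITGB2 lowest for full support in MM.1S at 27.8%.

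MM.1S peaks were mostly the wider. Among 75 peaks that matched exactly 1 peak of the other list in both directions, 61 (81.3%) were wider in MM.1S, with medians of 661 and 461 bp. The whole lists had median widths of 536 and 362 bp, so width was not read as a property of the adhesion genes.

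The start sites were compared next. The canonical start, the start of the transcript that Ensembl marks as canonical, had a peak within 2500 bp for 9 of 10 genes in MM.1S, all but ITGA5, where 71.5% of protein-coding genes had one. In RPMI8226 it had one for 6 of 10, where 65.3% did. CD44, NCAM1 and ITGB2 had a start peak in MM.1S and not in RPMI8226, a pattern found in 9.44% of genes. The reverse pattern, found in 3.19% of genes, was seen in none of the 10, and ITGA5 had a start peak in neither list, as did 25.3% of genes. When every annotated start of a gene was counted, 10 of 10 genes had an own-promoter peak in MM.1S and 9 of 10 in RPMI8226, where 76.8% and 71.9% of genes had one, and the gene without one was CD44. The number of annotated starts, from 3 for SELPLG to 35 for CD44, was not adjusted for. With only the 5′ end of each gene counted, 8 genes had such a peak in MM.1S and 6 in RPMI8226. Absence from the RPMI8226 list means that fewer than 3 of its 5 libraries had the peak. By the study's library statistics, each RPMI8226 library had fewer usable read pairs than each MM.1S library, except an MM.1S MONO library. The effect of depth on these absences was not tested. With a wider window of 5000 bp, CD44 and ITGA5 also had a peak in RPMI8226, which then had 8 of 10, and MM.1S kept 9. With 10 genes and 1 list a line, these counts were not tested.

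**Figure D3:**
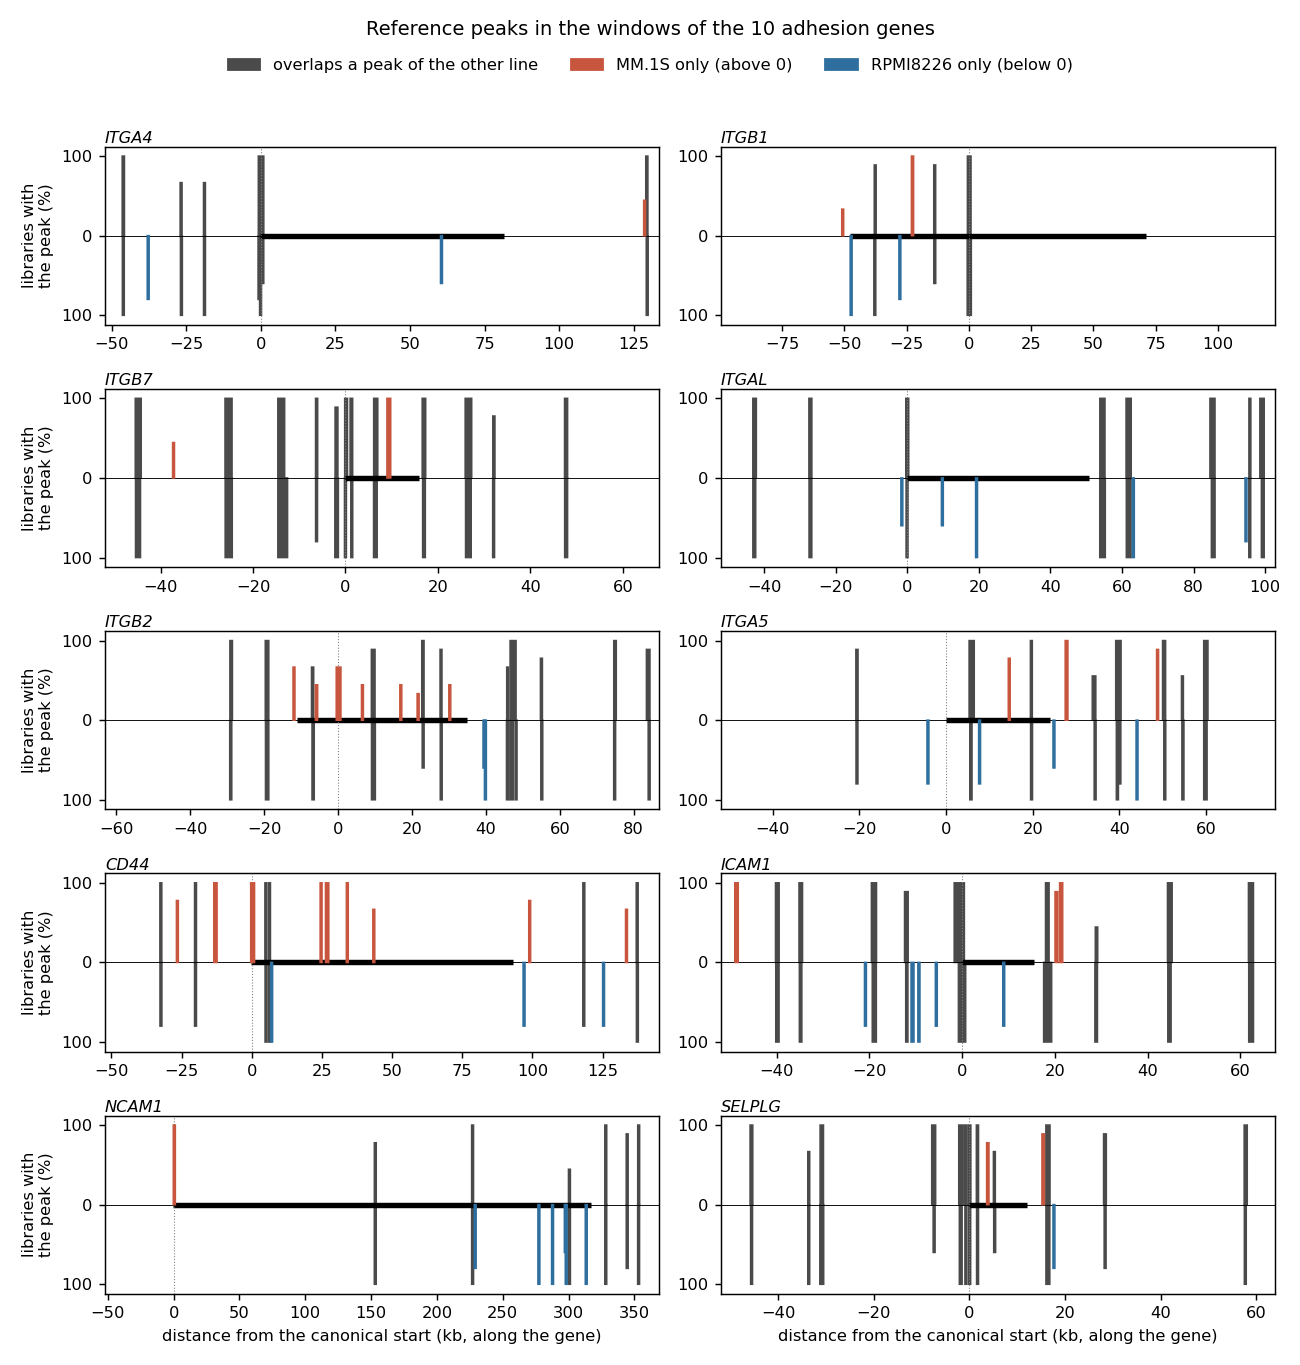
Reference peaks in the window of each gene, placed by distance from the canonical start (kb, along the direction of the gene), with MM.1S above and RPMI8226 below the zero line. Bar height is the share of the line's libraries with the peak (%), the black line is the gene body, and narrow peaks are drawn slightly wider than scale. Most bars are mirrored in both lines, with MM.1S-only bars across the body of CD44 and RPMI8226-only bars near the 3′ end of NCAM1.

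Both VLA-4 genes had a start peak in both lists. ITGA4, the alpha chain, lies at chr2:181457202-181538940 on the plus strand, and its window held 6 peaks in MM.1S and 9 in RPMI8226. At the ITGA4 start, MM.1S had 1 peak of 1816 bp in all 9 libraries, and RPMI8226 had 3 within that span, of 133, 605 and 540 bp with supports of 4, 5 and 3. The widest distal ITGA4 peak was 739 bp at -46.0 kb in MM.1S (support 9), and in RPMI8226 it was 564 bp at -26.6 kb (support 5). Positions are those of the peak centre from the canonical start, negative when upstream. Both of these ITGA4 peaks and those at -18.9 kb and in an intron of the downstream neighbour CERKL had a partner in the other line. The last of them holds the only AP-1 match among the ITGA4 peaks, at +129.3 kb in MM.1S and +129.5 kb in RPMI8226. No ITGA4 peak with full support was confined to 1 line.

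ITGB1, the beta chain common to VLA-4 and VLA-5, lies at chr10:32887273-33005792 on the minus strand, and its window held 5 and 6 peaks. The canonical ITGB1 start had 1 MM.1S peak of 1428 bp (support 9) and RPMI8226 peaks of 534 and 822 bp (support 5 each). The distal ITGB1 peaks near -13.7 and -37.6 kb, inside introns of its longer transcripts, were shared, the second being the widest in both lines at 608 and 327 bp. Each line also had 1 line-only ITGB1 peak with full support. In MM.1S it was an 860-bp peak at -22.6 kb (chr10:32980417-32981276), within 2500 bp of a start of the divergent transcript ITGB1-DT. In RPMI8226 it was a 297-bp peak at -47.2 kb, at the most upstream starts of ITGB1, whose centre holds an AP-1 match. The MM.1S peak at -22.6 kb holds an AP-1 match too, outside its central 200 bp. Within 2500 bp, the most upstream ITGB1 starts had a peak in RPMI8226 and none in MM.1S. The MM.1S list had a 290-bp line-only peak further upstream, at -50.6 kb, with a support of 3.

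ITGB7, the other partner of ITGA4, had most of its peaks in both lines. The gene lies at chr12:53191323-53207282 on the minus strand, and its window held 14 peaks in MM.1S and 12 in RPMI8226. All 12 RPMI8226 peaks were shared, as were 12 of the 14 MM.1S peaks, and 11 in each line were called in every library. Own-promoter peaks of ITGB7 in MM.1S were at +17.0, +9.4, +6.5, +1.3, +0.1 and -1.9 kb, and RPMI8226 had all of these but the one at +9.4 kb. That exception, 812 bp wide and in all 9 libraries (chr12:53197468-53198279), overlaps an exon of ITGB7 and was the only MM.1S-only peak of the window with full support. The own-promoter peak at +17.0 kb lies past the 3′ end of ITGB7, in an exon of ZNF740. It is also within 2500 bp of a ZNF740 start. ITGB7 is a known target of MAF in MM, and the centres of its peaks were searched for the MAF motif. None of the 14 or the 12 centres held one. Over whole peaks the only match was in the MM.1S-only peak at +9.4 kb. AP-1 letters stood in the central 200 bp of the shared peak at +17.0 kb in both lines, and of the one at +1.3 kb in MM.1S. The RPMI8226 partner of the latter, at +1.4 kb, holds the same letters outside its central 200 bp.

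ITGAL, the alpha chain of LFA-1, lies at chr16:30472658-30523567 on the plus strand, and its window held 8 peaks in MM.1S and 13 in RPMI8226. The difference of 5 was exceeded in 4.49% of protein-coding genes. All 8 MM.1S peaks were shared and all 8 were called in 9 of 9 libraries. The start peak of ITGAL was 803 bp in MM.1S and 461 bp in RPMI8226, each with full support. The additional RPMI8226 peaks included a 223-bp peak at -1.5 kb and a 235-bp peak at +9.8 kb, both with support 3, and 2 line-only peaks with full support. Of these, the 355-bp peak at +19.4 kb, in an ITGAL intron and the widest distal peak of the window in RPMI8226, holds an AP-1 match in its centre, and the 331-bp peak at +63.2 kb lies at the promoter of a neighbour. The peaks at +9.8 and +19.4 kb made up the longest RPMI8226-only run of the window, chr16:30482446-30492297.

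ITGB2, the beta chain of LFA-1, lies at chr21:44885953-44931989 on the minus strand, and its window held 18 peaks in MM.1S, the most of any gene here, and 14 in RPMI8226. A difference below this one of -4 was found in 4.58% of protein-coding genes. In MM.1S 5 of 18 peaks were called in all 9 libraries, and in RPMI8226 12 of 14 in all 5. Of the whole lists, 52.0% and 64.1% had such support. These shares rest on unlike numbers of libraries, and by the study's library statistics an MM.1S MONO library had the fewest usable read pairs. The difference in support was not tested. The MM.1S start peak of ITGB2 (chr21:44920152-44921409) was 1258 bp wide with a support of 6, so 3 MM.1S libraries lacked it. RPMI8226 had none there, its nearest being 6475 bp upstream of the start. This MM.1S peak was the middle of a run of 3 MM.1S-only peaks, with those at +6.6 and -5.8 kb at a support of 4 each. A pair of own-promoter peaks of MM.1S alone, at +30.2 and -11.9 kb, had supports of 4 and 6. Own-promoter peaks near +27.8, +9.5 and -6.9 kb were shared, with MM.1S supports of 8, 8 and 6 and full support in RPMI8226. No MM.1S-only ITGB2 peak had full support. RPMI8226 had 1 such peak of its own, 268 bp wide at +39.9 kb. The widest distal peaks of the window, 941 bp at +83.9 kb in MM.1S and 542 bp at -29.1 kb in RPMI8226, were shared.

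ITGA5, the alpha chain of VLA-5, lies at chr12:54395261-54419266 on the minus strand, and its window held 11 peaks in MM.1S and 13 in RPMI8226. It was the only gene of the 10 with no peak at the canonical start in either list. The nearest MM.1S peak lay 5336 bp downstream of the start and was 1176 bp wide with a support of 9, and the nearest RPMI8226 peak lay 3971 bp upstream and was 406 bp wide with a support of 4. The downstream peak, centred at +5.9 kb in MM.1S and +5.7 kb in RPMI8226, was shared and overlaps internal starts of ITGA5. A shared own-promoter peak also lay at +19.7 kb with full support in both lines. Own-promoter peaks at +14.6 kb in MM.1S (support 7) and +7.8 kb in RPMI8226 (support 4) were line-only. The upstream RPMI8226 peak at -4.2 kb, which holds 2 AP-1 matches, was also absent from MM.1S. Line-only peaks with full support were the 615-bp peak at +27.8 kb in MM.1S and the 386-bp peak at +44.1 kb in RPMI8226, neither within the ITGA5 body. The widest distal ITGA5 peaks were 690 bp at +50.3 kb in MM.1S and 425 bp at -20.6 kb in RPMI8226, both shared.

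ICAM1, the ligand of LFA-1, had the widest start peaks of the set. The gene lies at chr19:10271093-10286615 on the plus strand, and its window held 12 peaks in MM.1S and 14 in RPMI8226. The start peak was 2180 bp in MM.1S and 1554 bp in RPMI8226, in every library of both lines, and covers the promoter window with the STAT and ETS letters printed above. The widest distal ICAM1 peak was 748 bp at -34.8 kb in MM.1S, and in RPMI8226 it was 536 bp at +28.9 kb. In MM.1S the line-only peaks with full support were 733 bp at -48.6 kb, in an intron of DNMT1, and 653 bp at +21.4 kb, in an intron of ICAM5, a neighbouring adhesion gene. In RPMI8226 they were 621 bp at -10.7 kb and 434 bp at -9.3 kb. Both belong to a run of 3 RPMI8226-only peaks upstream of ICAM1 (chr19:10260114-10265649). RPMI8226 also had an own-promoter peak of 360 bp at +9.0 kb inside ICAM1 with a support of 4, which MM.1S lacked.

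CD44 had the largest difference in the number of peaks between the lines. The gene lies at chr11:35138882-35232402 on the plus strand, and its window held 15 peaks in MM.1S and 9 in RPMI8226. A difference below this one of -6 was found in 1.65% of protein-coding genes. The MM.1S start peak of CD44 (chr11:35138801-35140150) was 1350 bp wide and present in all 9 libraries, hence in MONO, TSW and CO alike. RPMI8226 had no reference peak there, and its nearest one began 4843 bp downstream of the start, at +5.1 kb, 458 bp wide in all 5 libraries. Of the MM.1S peaks 6 of 15 were shared, and 16.7% of the bases they covered were also covered in RPMI8226. In RPMI8226 6 of 9 peaks and 65.0% of covered bases were common to both. Beyond the start, MM.1S alone had intronic CD44 peaks at +24.7, +26.8 and +34.0 kb in all 9 libraries, 551, 1168 and 558 bp wide, and the one at +26.8 kb was the widest distal peak of the window. With the peaks at +43.5 kb, at an internal start (support 6), and +99.0 kb (support 7) they formed the longest MM.1S-only run in any of the 10 windows, 5 peaks over chr11:35163592-35238389. A further MM.1S-only peak of 1147 bp with full support stood at -13.0 kb. The MM.1S-only peak at +43.5 kb holds AP-1 letters in its centre. RPMI8226 had 1 line-only peak with full support, 251 bp wide at +7.1 kb, whose centre, printed above, also holds an AP-1 match. The shared peaks of CD44 were at -32.4, -20.0, +5.0, +6.3, +118.3 and +137.3 kb in MM.1S, all with a support of 9, and their RPMI8226 partners had supports of 4 or 5. The peak at +137.3 kb, in an intron of SLC1A2, holds a MAF motif in both lines.

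NCAM1 had a start peak in MM.1S alone and a run of line-only peaks in its 3′ part in RPMI8226. The gene lies at chr11:112961275-113278436 on the plus strand, and its window of 417 kb held 7 peaks in MM.1S and 12 in RPMI8226, a difference of 5. The NCAM1 start peak of MM.1S (chr11:112961163-112962678) was 1516 bp wide in all 9 libraries and was the only line-only peak of MM.1S in the window. In RPMI8226 the nearest reference peak to the start was 79.7 kb away, upstream and outside the window. RPMI8226 had 6 line-only peaks, in the 3′ part of the gene. The peaks at +277.5, +287.8, +298.2 and +313.4 kb were called in all 5 libraries and were 488, 1111, 621 and 366 bp wide, while those at +229.1 and +297.5 kb had supports of 4 and 3. The first 5 by position formed a run of RPMI8226-only peaks over chr11:113190326-113259950, and the peak of 1111 bp was the widest distal peak of RPMI8226 in the 10 windows. The widest distal NCAM1 peak of MM.1S was 887 bp at +227.1 kb and was shared. The peaks at +277.5 and +298.2 kb lie at internal starts of short NCAM1 transcripts, and the one at +313.4 kb lies at a start of NCAM1-AS1. The peak at +300.7 kb, also at an internal start, was shared and holds a MAF motif in both lines, with a support of 4 in MM.1S and 5 in RPMI8226.

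**Figure D4:**
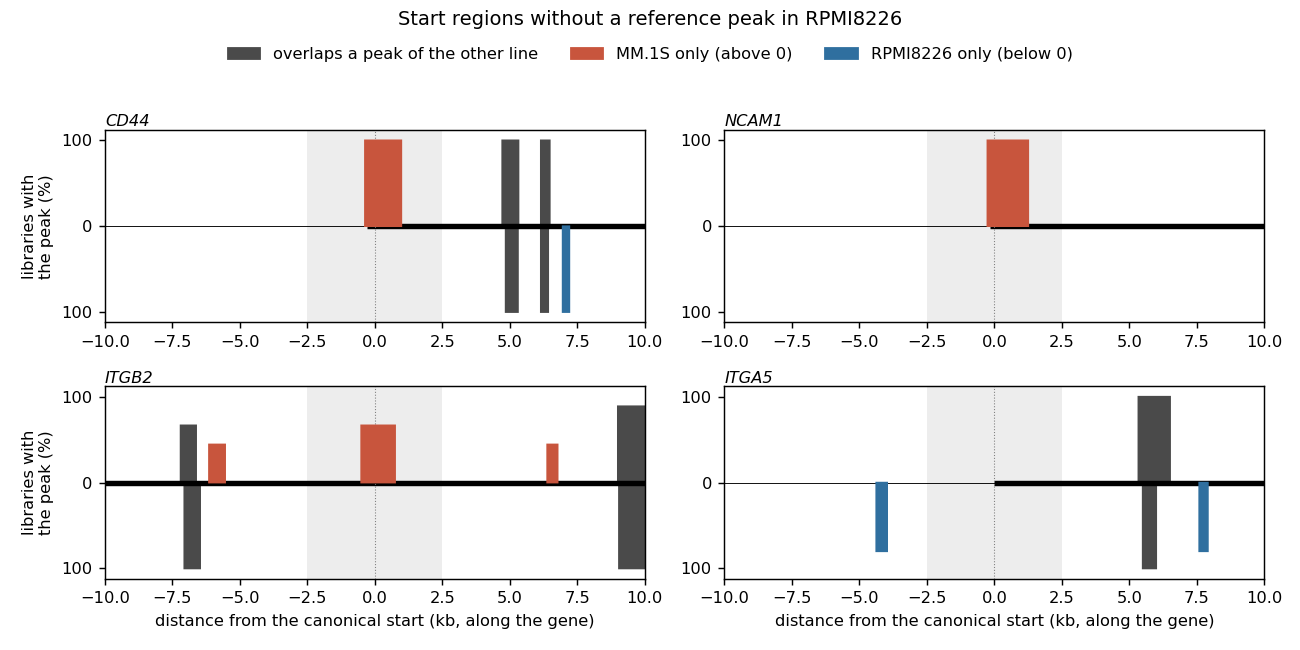
Reference peaks within 10 kb of the canonical start (kb, along the gene) of CD44, NCAM1, ITGB2 and ITGA5, with the share of libraries with the peak (%) above the line for MM.1S and below it for RPMI8226. The grey band is the 2500 bp on either side of the start. It holds an MM.1S-only peak in CD44, NCAM1 and ITGB2, and no peak in ITGA5.

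SELPLG, the selectin ligand, had as many peaks in one line as in the other. The gene lies at chr12:108621895-108633894 on the minus strand, and its window held 14 peaks in each list, of which 12 in MM.1S and 13 in RPMI8226 were shared. RPMI8226 peaks lay almost wholly within MM.1S peaks, with 94.8% of their bases covered. Around the canonical start both lines had 4 peaks, at +1.7, +0.1, -0.7 and -1.8 kb, 439, 462, 500 and 908 bp wide in MM.1S and 235, 423, 270 and 568 bp in RPMI8226, each with full support. MM.1S had 1 more own-promoter peak, at +3.9 kb, with a support of 7 and no partner. The widest distal SELPLG peak of both lines was the one at +16.4 kb, 854 and 795 bp wide with full support, whose centre holds the MAF motif printed above. A shared peak at +5.2 kb in MM.1S, with a support of 6, holds STAT and AP-1 letters, and its RPMI8226 partner had a support of 3. No line-only peak of SELPLG had full support.

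The adhesion-gene peaks were searched for the letters of 13 motifs. AP-1 is the motif of the JUN and FOS factors. Its letters stood in the central 200 bp of 2 of 45 distal peaks in MM.1S (4.44%) and 6 of 48 in RPMI8226 (12.5%), against 9.16% and 17.0% of all distal peaks. The MAF motif stood in 3 of 45 (6.67%) and 2 of 48 (4.17%), against 5.70% and 5.90%. ATF::CEBP letters (TGATGNAA) stood in 3 of 45 and 2 of 48 distal peaks, beside 3.79% and 4.04% of all distal peaks. The NF-kB motif stood in 0 and 1, beside 1.13% and 1.39%, and STAT letters in 0 and 1, beside 0.607% and 0.647%. At promoters SP/KLF letters were the most frequent of these motifs, in 22 of 65 MM.1S and 22 of 68 RPMI8226 peaks (33.8% and 32.4%), beside 35.3% and 31.7% of all promoter peaks. STAT letters stood in 2 of 65 and 2 of 68 promoter peaks (3.08% and 2.94%), beside 0.572% and 0.607% of all promoter peaks. AP-1 letters stood in 5 of 65 and 4 of 68 (7.69% and 5.88%), beside 4.70% and 9.33%. Both strands were searched. Counts this small do not separate the adhesion genes from the lists.

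The wider adhesion machinery was described by 63 further genes in 7 groups, and the canonical start of each was examined in the same way. In MM.1S 52 of the 63 had a start peak and in RPMI8226 46 had one, with 44 in both, 8 in MM.1S only, 2 in RPMI8226 only and 9 in neither. Of the 20007 protein-coding genes, 71.5% had one in MM.1S and 65.3% in RPMI8226, 9.44% in MM.1S only, 3.19% in RPMI8226 only and 25.3% in neither, and each group count below is to be read against them. Among 15 other alpha chains, 11 had a start peak in MM.1S and 8 in RPMI8226. ITGA2, ITGA7, ITGA8 and ITGA10, which bind collagen, laminin or other matrix, had it in MM.1S only, and ITGAX, of myeloid cells, in RPMI8226 only. Of 5 other beta chains, 4 had it in both lines, and ITGB6 had it in neither.

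Among 10 counter-receptors and matrix genes, 6 had a start peak in MM.1S and 4 in RPMI8226. VCAM1, the stromal ligand of VLA-4, had none in either list, nor had CDH1, SELE or SELP, the last 2 of which encode endothelial selectins bound by SELPLG. MADCAM1, the ligand of the pair of ITGA4 and ITGB7, and ICAM3 had one in MM.1S only. All 9 integrin activators had one in MM.1S and 8 had one in RPMI8226, where FERMT2 (kindlin-2) lacked it. Adhesion signalling genes had it in 8 of 9 cases in both lines, BCAR1 being the exception. Of 10 partner genes, such as the syndecan SDC1 and the chemokine receptor CXCR4, 9 had a start peak in MM.1S and 10 in RPMI8226, where L1CAM was the addition. Of 5 glycosyltransferases that build selectin ligands on SELPLG, 5 and 4 had one, and FUT4 was missing from RPMI8226. None of these counts was tested.

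**Figure D5:**
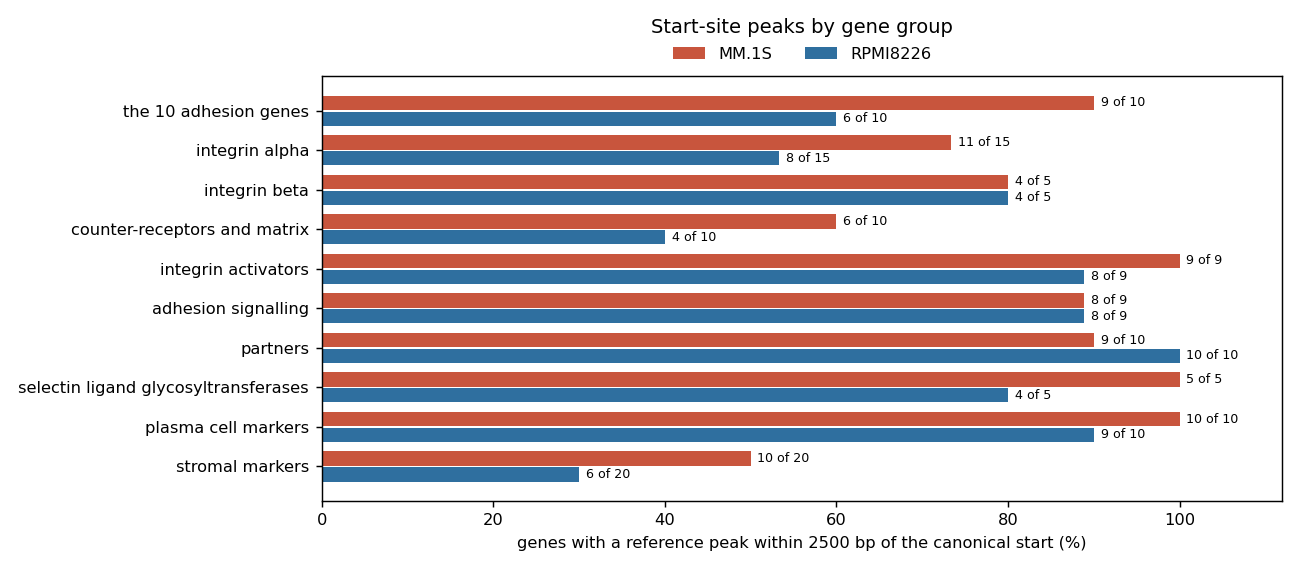
Share of genes (%) with a reference peak within 2500 bp of the canonical start in MM.1S and RPMI8226, for the 10 adhesion genes, the 7 groups of related genes and the markers of plasma cells and stroma, with counts at the bars. The largest gap in favour of MM.1S is in the 10 adhesion genes, at 9 against 6, and partners are the group with more in RPMI8226.

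Markers of both cell types that the sort could hold were examined at their starts, because CD44, ICAM1, ITGA5 and ITGB1 are also genes of stromal cells. Plasma cell markers had a start peak in 10 of 10 cases in MM.1S and 9 of 10 in RPMI8226, where JCHAIN lacked it. Of 20 stromal markers, 10 had one in MM.1S and 6 in RPMI8226. LOX, TWIST1, PRRX1, SPARC and FBN1 had it in MM.1S only, as did CD44, and COL5A1 in RPMI8226 only. MM.1S support was 9 at LOX, TWIST1, SPARC and FBN1 and 8 at PRRX1, values that need libraries of every culture condition. In neither list was there a start peak at THY1, which encodes the CD90 used in the sort, or at COL3A1, COL6A2, FAP, DCN, LUM, CDH11, POSTN and MMP2. The CD44 and NCAM1 start peaks of MM.1S were called in all 9 libraries, including the 3 MONO libraries that were grown without HS5. The ITGB2 start peak of MM.1S had a support of 6, which the TSW and CO libraries alone could give. The part of HS5 DNA in these and the other peaks was not tested.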

How the data were processed

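Omni-ATAC was performed by the authors on 14 libraries of MM.1S and RPMI8226. Per the study's methods and the submitters' processing notes, the authors aligned paired-end reads to hg38 with Bowtie2, removed multi-mapped reads, kept 1 read per position and called peaks with MACS3. Versions, peak-calling thresholds and the merging of boundaries are not given in the sources used here. The deposited lists give a chromosome, start, end and an unnamed whole number from 3 to 9 or from 3 to 5, read as the number of libraries with the peak. This deposited number, of a unit other than a read count and not normalized, does not separate replicates and gives no depth. The study reports read pairs per library, and no correction for them was made here. A merged boundary can widen a peak or join neighbours, which affects widths, overlaps and classes.

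Starts were taken as zero-based and are printed from 1. Genes came from GENCODE release 44. Python 3.11.15, NumPy 2.4.6, pandas 2.3.3, SciPy 1.17.1 and pysam 0.24.0 were used, with 95% Wilson intervals. Scripts were checked on simulated data. The members, gene groups and motifs were chosen with earlier results of these data known. All 10 genes are named. Named peaks are the own-promoter peaks, the widest distal peak, line-only peaks with full support and the longest line-only run of each gene and list, and related genes are named where the lists differ or neither has a start peak. Sample titles gave each sample's line and culture. Alternative flanks, promoter windows, transcript sets, overlaps, support and width filters were tried. Planned comparisons needed values per sample, and none was tested.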

Additional observations from a re-analysis of the deposited data

How the results depend on the processing

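No paired analysis was possible because the lists hold no value for a single sample, and leaving out a replicate could not be run for the same reason. Counts and shares of member peaks moved with the window and the filters. With no flank the 110 MM.1S and 116 RPMI8226 peaks became 39 and 39, with 10 kb 58 and 59, and with 100 kb 168 and 179. Keeping only peaks called in every library left 68 in MM.1S, and a width filter at the median of each list left 73 and 64. The distal share (40.9% and 41.4%) was 30.8% in MM.1S with no flank and 29.3% with 10 kb, and 26.6% in RPMI8226 among wide peaks. It was 51.7% in RPMI8226 with a promoter window of 1000 bp, 30.9% and 27.6% with 5000 bp, 52.7% and 57.8% with protein-coding transcripts only, and 59.1% and 58.6% with the 5′ end of each gene only. The shared share (72.7% and 74.1%) was 59.0% and 64.1% with no flank, 60.3% and 61.0% with 10 kb, 83.8% and 85.7% among peaks with full support, 87.5% among wide RPMI8226 peaks, and 56.4% and 53.4% when 50% of each peak was required. Full support (61.8% and 72.4%) rose to 79.5% and 95.3% among wide peaks. The whole-list shares given above hold for the main promoter definition, overlap rule and peak filters only. Shares under other settings of these are not to be set against them. AP-1 matches (7 and 10 peaks) were 18 and 24 over whole peaks and 3 and 6 among peaks with full support, and MAF motifs (5 and 4) were 8 and 7 over whole peaks. Genes with an own-promoter peak (10 and 9) were 8 and 6 with the 5′ end of each gene only, and 9 and 6 with the canonical start only. Under the other alternatives run, these and the canonical-start counts stayed within 1.5 times. Chosen after seeing the data, a canonical-start window of 5000 bp raised RPMI8226 from 6 to 8 genes, since CD44 and ITGA5 then had a peak, while MM.1S stayed at 9. A window of 1000 bp gave 9 and 6. With full support required MM.1S had 8, without ITGB2. Depth, which by the study's library statistics was mostly lower in RPMI8226, limits what absence from a list can mean.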
